A study of Drosophila melanogaster with 2 samples.

Results

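The products described here are the 27 microRNA products whose hairpin accession number is 5000 or above, out of 101 products in the table. They come from 25 of the 83 listed hairpins, and the other 74 products come from 58 hairpins with lower numbers. Hairpin accessions are issued in order of registration, so the higher numbers are called later-registered here and the lower numbers earlier-registered. The table gives no registration date and no method of discovery, so whether these hairpins were first seen by deep sequencing could not be checked in it. The listed numbers leave a wide gap, with 432 the highest below the limit and 5808 the lowest above it, so any limit within the gap selects the same 27 products. Just below the limit stood a product with 504 wild-type and 10094 mutant reads, and just above it one with 1089 and 17118.

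The RNA came from whole Drosophila melanogaster larvae with a labelled age of 48 h and a growth temperature of 25 °C. One group was wild type, and the other was homozygous for the mutant allele cdk9-G57S. Cdk9 is the kinase that marks the tail of RNA polymerase II by phosphorylation as it elongates. With 1 library per genotype, the differences below have no replicate check, and p-values are not given. The libraries held 2135660 (wild type) and 2204104 (cdk9-G57S) reads over the listed products, and a share below is a percentage of that total. The 95% intervals cover counting error only; since PCR copies of a read are not separate molecules, the real uncertainty is larger. In whole larvae, fewer cells of a type and less of a microRNA per cell cannot be told apart.

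As background, a microRNA begins as a hairpin within a longer transcript, which the Microprocessor (Drosha with its partner Pasha) cuts out while the transcript is being made or soon after. Dicer then cuts off the loop, and one strand of the remaining duplex is usually kept in an Argonaute protein while the other is usually degraded. In flies, some hairpins found by deep sequencing are mirtrons, short introns that the spliceosome releases in place of Drosha. The accessions carry no names, sequences or positions in the table, and 0 of the 83 listed hairpins matched the gene tables at hand. The lack of a match is thus not particular to the 25 later-registered hairpins. Which of the 25 are mirtrons, what they target and which strand each product is were not analysed here for this reason. The products are therefore named by their rank of mean share among the 27, and only the largest increases and decreases are given by identifier.

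The later-registered hairpins made up a small part of the listed microRNA reads in both genotypes. They were 26.7% of the listed products, but held 8.29% of wild-type reads (8.25 to 8.32, exact Clopper-Pearson) and 7.32% of mutant reads (7.29 to 7.36). Their median mean share was 0.155%, compared with 0.293% for the earlier-registered products. None of the 10 most abundant products of the table was later-registered, and 3 of the top 20 and 7 of the lowest 20 were. Their highest rank in the table was 13. The least abundant product in wild type had 410 reads, and the least abundant in cdk9-G57S had 134, so each of the 27 was detected in both libraries.

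A few products held most of these reads. The most abundant of the 27 had 32246 wild-type and 25767 mutant reads, or 1.51% and 1.17% of the libraries. The second had 37132 and 14336 reads, or 1.74% and 0.650%. The third had 21789 and 27877 reads, or 1.02% and 1.26%, and was thus the leading later-registered product of the mutant library, while the second led in wild type. Together these 3 held 51.5% of the later-registered reads of wild type and 42.1% of those of the mutant. The fourth product was lower in abundance, with 14217 and 10208 reads. The fifth, MI0005808_1, stood at 21 among the 27 in wild type and at 3 in cdk9-G57S.

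**Figure D1:**
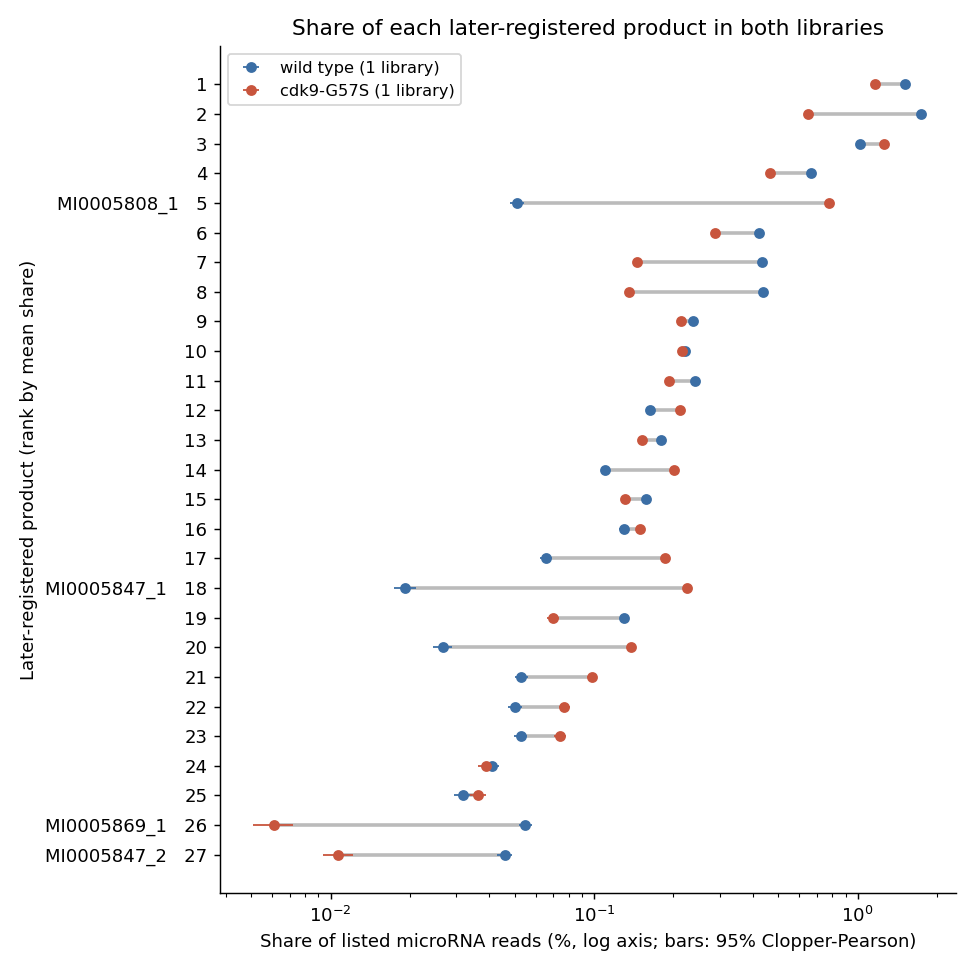
Share of the listed reads (percent, log axis) of each of the 27 later-registered products in the wild-type and the cdk9-G57S library, ordered by mean share; points are single libraries and bars are 95% Clopper-Pearson intervals. The widest gaps between the libraries belong to MI0005808_1, MI0005847_1 and MI0005869_1, while 18 of the 27 products lie within 2-fold.

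The net difference in summed share was made of larger differences in both directions, and its size depended on the scaling. The ratio of summed shares (mutant over wild type) was 0.884 (exact conditional-binomial interval 0.878 to 0.890), or 1.13-fold lower in the mutant. It was 0.786 with edgeR's TMM, 0.750 with DESeq2's median of ratios and 0.686 when the totals omitted the most abundant product. On the scale of total reads, products with a higher share in the mutant gained 1.66 percentage points of the library in all, and those with a lower share changed by -2.63 points. MI0005808_1 alone accounted for 0.726 of the points gained, and the second most abundant product for -1.09 of the points lost. Without MI0005808_1, the other 26 products held 8.24% of wild-type and 6.55% of mutant reads. Measured among themselves, 25.9% of the later-registered reads would have to be reassigned to turn the wild-type composition into that of the mutant, and the same value among the earlier-registered products was 37.1%. The latter includes the most abundant product of the table, with 749599 wild-type and 361293 mutant reads, and its part in the value was not separated.

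Most later-registered products stayed within 2-fold. A size rule took the place of a test: a product was counted when its share was at least 2-fold higher or lower and its counting interval lay wholly on one side of 1. Under it, 9 of the 27 (33.3%) differed, compared with 44.6% of all 101 products. In cdk9-G57S 4 of the 27 (14.8%) were higher, against 27.7% of all products, and 5 (18.5%) were lower, against 16.8% of all products. The second of these comparisons turned with the scaling: 6 of the 27 (22.2%) were lower under 3 other scalings, against 23.8% of all products with DESeq2's median of ratios, 20.8% with edgeR's TMM and 28.7% when the totals omitted the table's most abundant product. The 4 higher products stood against 23.8%, 25.7% and 22.8% of all products under the same scalings. The median log2 ratio was -0.07 over the 27, 0.36 over the 74 earlier-registered products and 0.24 over all 101. Quartiles were -0.53 and 0.56 for the later-registered and -0.75 and 1.35 for the earlier-registered products. The range of the 27, from -3.18 to 3.93, was nevertheless nearly as wide as that of the whole table. At a 1.5-fold limit 7 of the 27 were higher and 6 lower, where 35.6% and 29.7% of all products were (65.3% in either direction). At a 4-fold limit 3 were higher and 2 lower, where 7.92% and 5.94% of all products were (13.9% in either direction). These are descriptions of 2 libraries, and the difference between the sets was not tested.

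Abundance differed between the sets too, so the earlier-registered products of like abundance are given beside them. There were 60 earlier-registered products with summed reads inside the range of the 27 (1213 to 58013 reads over both libraries). Of these 60, 20 were at least 2-fold higher and 9 at least 2-fold lower, and their median log2 ratio was 0.39. Their summed share was 19.4% in wild type and 24.5% in the mutant, a ratio of 1.26 (1.26 to 1.27), while that of the later-registered products was 0.884. These values are on the scale of total reads, and those of the 60 were not computed under the other scalings. When the totals omitted the most abundant product, all log2 ratios shifted by -0.37, about the size of the median of 0.39. A higher share of the 60 in the mutant thus depends on the scaling.

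**Figure D2:**
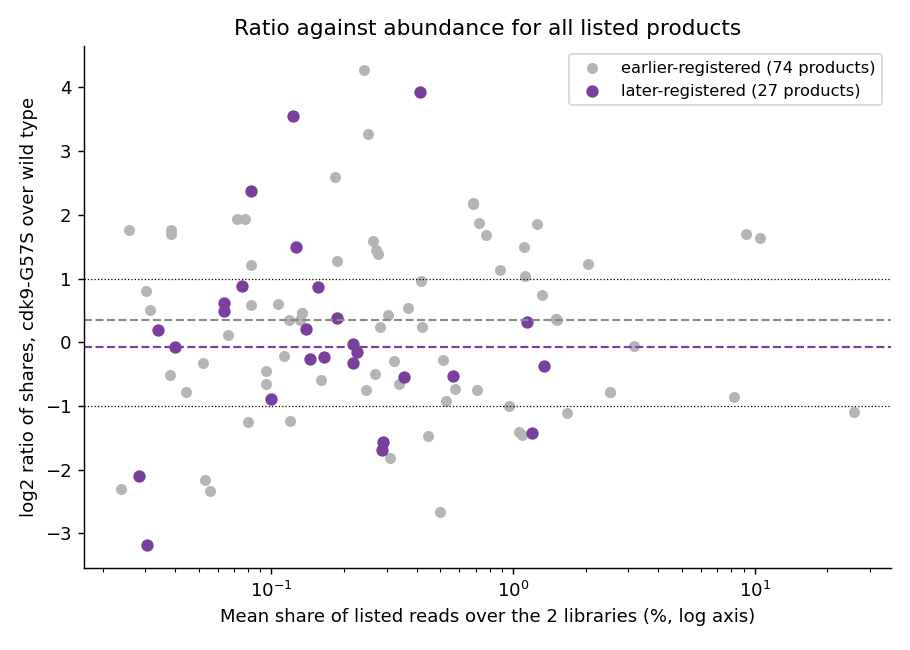
Log2 ratio of shares (mutant over wild type) against the mean share over the 2 libraries (percent, log axis) for the 27 later-registered and 74 earlier-registered products; dashed lines are the medians of the sets (-0.07 and 0.36) and dotted lines the 2-fold limits. The later-registered products lie at low to middle abundance and mostly between the dotted lines.

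The 4 higher products were rare in wild type. The share of MI0005808_1 was 0.0510% in wild type and 0.777% in the mutant library (1089 and 17118 reads), 15.2-fold higher (14.3 to 16.2). For MI0005847_1 the reads were 410 and 4973 and the share 11.8-fold higher (10.6 to 13.0). It was the rarest later-registered product of wild type and the seventh most abundant of the mutant. The product of rank 20, with 570 and 3056 reads, was 5.19-fold higher in share (4.75 to 5.69). That of rank 17, with 1404 and 4103 reads, was 2.83-fold higher (2.66 to 3.01). Between them the 4 held 1.96% of the later-registered reads of wild type and 18.1% of those of the mutant. Since the 4 were picked by their ratio, the direction of this difference follows from the size rule. All 4 stayed at least 2-fold higher under each of the 4 scalings tried (total reads, total without the table's most abundant product, DESeq2 median of ratios and edgeR TMM).

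The 5 lower products were of both kinds, abundant and rare. The second most abundant product, given above, was 2.67-fold lower in share in the mutant (2.62 to 2.73). The seventh, with 9245 wild-type and 3214 mutant reads, was 2.97-fold lower (2.85 to 3.09). The eighth, with 9381 and 2992, was 3.24-fold lower (3.11 to 3.37). The seventh and the eighth thus held nearly the same reads in each library, though they come from different hairpins, and reads counted for both were not tested. The 2 lowest-ranked products were also lower: MI0005869_1, with 1173 and 134 reads, by 9.03-fold (7.55 to 10.9), and MI0005847_2, with 977 and 236, by 4.27-fold (3.70 to 4.95). Together the 5 held 32.7% of the later-registered reads of wild type and 13.0% of those of the mutant, a direction that again follows from the size rule.

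The 2 products with the largest decreases were also the least abundant of the 27, with 1307 and 1213 reads summed over both libraries. No product of the whole table had fewer than 1023 summed reads. Close to that sum, a low count in either library goes with a higher one in the other, and the part of this in both decreases was not tested. No higher product lay so near it, since the 4 had between 3626 and 18207 summed reads.

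The remaining 18 products lay within 2-fold, 8 above a ratio of 1 and 10 below it. They held 5.41% of wild-type and 5.05% of mutant reads, which was 65.3% and 68.9% of the later-registered reads. Nearest the limits were the product of rank 21, with 1132 and 2157 reads and a ratio of 1.85 (1.72 to 1.99), and that of rank 19, with 2772 and 1543 reads and a ratio of 0.539 (0.506 to 0.574). The product of rank 19 passed the 2-fold limit under each of the other 3 scalings. The product of rank 14 came close as well, with 2354 and 4422 reads and a ratio of 1.82 (1.73 to 1.91). For the most abundant product the ratio was 0.774 (0.762 to 0.787), and for the fourth it was 0.696 (0.678 to 0.714). The sixth, with 8987 and 6360 reads, had a ratio of 0.686 (0.664 to 0.708). Thus 6 of the 8 most abundant later-registered products had a lower share in the mutant library, 3 of them by at least 2-fold. Over all 27, 15 had a lower share. Of all 101 products 47 did, and 16.8% of the 101 were at least 2-fold lower.

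The interval included 1 for 2 products, those of rank 10 (4716 and 4758 reads, ratio 0.978, 0.939 to 1.02) and rank 24 (872 and 859 reads, ratio 0.955, 0.868 to 1.05). The product of rank 9 had 5059 and 4702 reads, that of rank 11 had 5143 and 4253, and that of rank 13 had 3821 and 3360, with ratios between 0.801 and 0.901. Of the less abundant ones, rank 15 had 3367 and 2885 reads, rank 22 had 1073 and 1699 (ratio 1.53), and rank 23 had 1125 and 1637 (ratio 1.41). On the higher side, the product of rank 12 had 3484 and 4661 reads, a ratio of 1.30. Direction depended on the scaling for 3 products, those of rank 3, 16 and 25, whose ratios were 1.24, 1.15 and 1.14 with each library scaled to its total and 0.962, 0.893 and 0.883 when the totals omitted the table's most abundant product. The products of rank 16 and 25 had 2766 and 679 wild-type reads, and 3284 and 797 mutant reads.

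**Figure D3:**
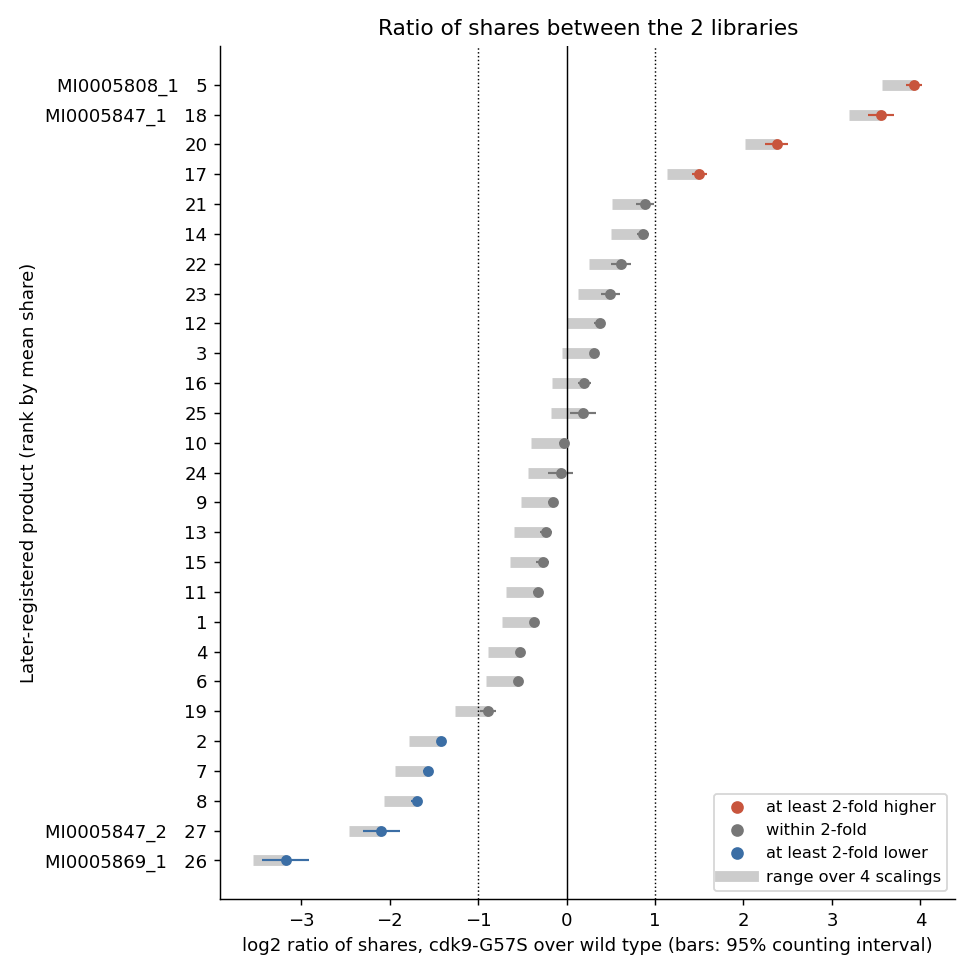
Log2 ratio of shares (mutant over wild type) of the 27 later-registered products, ordered by ratio and marked by their rank of mean share; bars are 95% counting intervals, grey bands the range over 4 scalings and dotted lines the 2-fold limits. There are 4 products above the upper limit and 5 below the lower one, and the grey bands of rank 3, 16 and 25 cross 0.

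The suffix of a product, 1 or 2, distinguishes the products of a hairpin in the table and is not read here as a strand. Of the 16 later-registered suffix 1 products, 4 (25%) passed the 2-fold limit upwards and 1 (6.25%) downwards. Their summed share was 2.64% in wild type and 3.82% in the mutant. Among the 11 with suffix 2, 0 were higher and 4 (36.4%) were lower, with a summed share of 5.65% and 3.50%. In the earlier-registered set, 11 (25%) were higher and 5 (11.4%) lower of 44 with suffix 1. With suffix 2, 13 (43.3%) were higher and 7 (23.3%) lower of 30. Over all 101 products, 27.7% were higher and 16.8% lower. The earlier-registered suffix 2 products held 57.8% of wild-type and 62.6% of mutant reads. The set and suffix were not tested together.

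Few later-registered hairpins had both products listed. This was so for 2 of 25 hairpins and for 16 of 58 earlier-registered hairpins (27.6%). Abundance differs between these sets: among the 60 earlier-registered products of like abundance, 8 of 52 hairpins had both products in that range. The part of abundance in this difference was not tested. In both later-registered hairpins, the suffix 2 product lost ground to the suffix 1 product in the mutant library, a comparison in which the scaling of each library cancels. Among the 16 earlier-registered hairpins both directions occurred. There the log2 ratio of suffix 2 minus that of suffix 1 ran from -3.10 to 3.97. The direction shared by 2 hairpins is thus not particular to the later-registered set. The first later-registered hairpin held the products of rank 3 and 8. Its suffix 2 product took 30.1% of that hairpin's wild-type reads (29.6 to 30.6) and 9.69% of its mutant reads (9.36 to 10.03). Meanwhile the hairpin's summed share was nearly level, at 1.46% and 1.40%. The log2 ratios of its products differed by -2.00 (normal-approximation interval -2.07 to -1.94), that is 4.01-fold.

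In the second hairpin, MI0005847, the more abundant product was not the same in the 2 libraries. Its suffix 2 product held 70.4% of the wild-type reads (68.0 to 72.8) and 4.53% of the mutant reads (3.98 to 5.13). Its summed reads were 1387 and 5209, 3.64-fold higher in share in the mutant (3.43 to 3.86). The log2 ratios of the products differed by -5.65 (-5.90 to -5.40), the widest of the 18 hairpins with both products listed. The suffix 2 product, with 1213 summed reads, lay near the lowest sum of any listed product, 1023. The part of this in the difference was not tested. For the 16 earlier-registered hairpins the absolute difference ran from 0.36 to 3.97, with a median of 1.46. The 2 later-registered hairpins ranked 1 and 7 of 18.

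**Figure D4:**
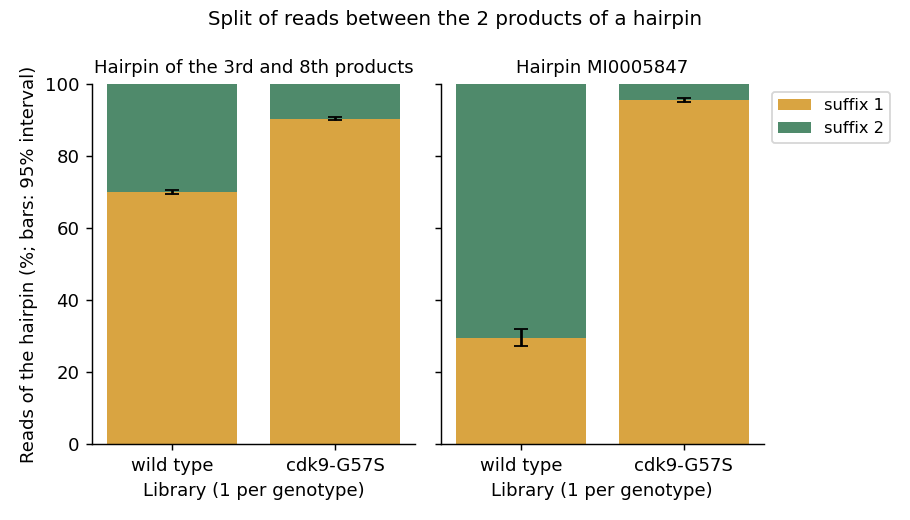
Percentage of a hairpin's total that fell to its suffix 1 and suffix 2 products in the wild-type and the cdk9-G57S library, for the 2 later-registered hairpins with both products listed; bars are 95% Clopper-Pearson intervals. Suffix 2 goes from 30.1% to 9.69% in the hairpin of rank 3 and 8, and from 70.4% to 4.53% in MI0005847.

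The order of abundance among the later-registered products was kept only in part. Across the 27 products, the Spearman correlation of reads between the libraries was 0.580, and across the 74 earlier-registered products it was 0.822. The 27 and the 74 differ in their range of abundance. Across the 60 earlier-registered products with summed reads inside the range of the 27, it was 0.700. These correlations run across products that share the same 2 libraries, so they are descriptions. Between mean share and log2 ratio the correlation across the 27 was -0.158. By abundance, the 13 products above the median held 7.32% of wild-type and 5.88% of mutant reads, with 1 higher (7.69%) and 3 lower (23.1%). The other 14 products held 0.968% and 1.44%, with 3 higher (21.4%) and 2 lower (14.3%), where 27.7% of all products were higher and 16.8% lower. In rank among all 101 products, 7 of the 27 moved by more than 20 places between the libraries. The same count was not made for the earlier-registered products, so whether 7 is many or few is not known.

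Reads shared between similar hairpins can make products look alike. None of the 27 later-registered products matched a product from a different hairpin to within 2% of its reads in both libraries, while 9 earlier-registered products did. At a limit of 10% there were 9 among the 27 later-registered, those of rank 4, 6 to 11, 22 and 23. At that limit 25 of the 74 earlier-registered products matched, and 34 of all 101, so the later-registered ones did not stand out. The seventh and the eighth, both in the lower class, were among the 9 later-registered ones, and none of the 4 higher products was.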

How the data were processed

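Total RNA from whole larvae was extracted with Trizol and sequenced by Illumina, per the labels' protocols. The submitters' processing notes name Bowtie and build dm3. Not given in the sources used here: trimming, annotation release and the handling of multiply matching reads. For each product the authors deposited raw read counts. A second pair of columns holds a normalized signal, which the authors made with DESeq2 per the file headers. Its size factors, recovered from the values, were 0.907 and 1.10. It was used for nothing else. The 4 footer lines were left out. Rows were products whose identifier held a hairpin number and a suffix.

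Ratios and intervals were computed over all 101 products, and all had at least 20 summed reads, the minimum. The size rule required a ratio of 2 or more, or 0.5 or less, and an interval excluding 1. Shares had exact Clopper-Pearson intervals. At most 2 increases and 2 decreases were given by identifier. The 27 products, the lists and the size rule were chosen with earlier results of these data known. Lists by microRNA name (mirtrons, genomic clusters, shared seeds) could not be applied without names. The alternatives were DESeq2 and edgeR TMM scaling, totals omitting the most abundant product, other limits and minimums, a pseudocount, sums per hairpin and 1 product per near-identical set (reads within 2%). The ratio rule was tested on simulated counts that held counting error only, so that test does not cover variation between libraries. Python 3.11.15 (numpy 2.4.6, pandas 2.3.3, scipy 1.17.1, matplotlib 3.10.9) and R 4.3.3 (edgeR 4.0.16, DESeq2 1.42.0) were used.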

Additional observations from a re-analysis of the deposited data

How the results depend on the processing

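Scaling shifted all log2 ratios together, by -0.24 with DESeq2's median of ratios, -0.17 with edgeR's TMM and -0.37 when the totals omitted the most abundant product. The median log2 ratio of the later-registered products was then -0.30, -0.24 and -0.43, and under each there were 4 higher and 6 lower products, the added one being that of rank 19; all products then numbered 24 higher and 24 lower, 26 and 21, and 23 and 29. All 9 products past 2-fold kept their class under these scalings and with a pseudocount of 5. A limit of 1.5-fold gave 7 higher and 6 lower (35.6% and 29.7% of all products), and a limit of 4-fold gave 3 higher and 2 lower (7.92% and 5.94%). The lower products numbered 3 of 23 with a minimum of 2000 summed reads, which removed 4 later-registered products, 2 of them lower (15.7% of all products were lower and 28.1% higher). They numbered 3 of 25 with reads summed per hairpin (10 of all 83 hairpins were lower and 24 higher), since the lower product of each 2-product hairpin was then added to its partner; 4 were higher in each case. Without the most abundant product in the totals, the later-registered share was 12.8% in wild type and 8.76% in cdk9-G57S. Keeping 1 product per near-identical set, all of them earlier-registered, gave 8.83% and 7.83%. No paired analysis was possible because replicates were lacking, with 1 library for each genotype. Variation between samples is unknown.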
